A study of Mus musculus with 9 samples.

Results

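Of the 31053 genes counted in this series of CD11b+ mouse brain cells, 9 are described here: Sall1, Sall3, Maf, Mef2a, Mef2c, Spi1, Runx1, Cebpa and Cebpb. They were chosen by name as lineage transcription factors of microglia and macrophages, and the rule used no measured value, although the choice was made with earlier results of these data known. Single cells were captured with the 10x Genomics platform from whole brains without cerebellum of female C57BL/6J mice (C57BL/6 in the labels) aged 5 months, after perfusion, removal of myelin and sorting of live CD11b+ cells. Ctrl mice were untreated and gave 1 mouse per library (Ctrl-1, Ctrl-2 and Ctrl-3). D0 mice had eaten PLX5622, an inhibitor of the receptor CSF1R, at 1200 mg/kg of diet over 14 days, and D2 mice had then returned to control diet for 2 days. D0 and D2 libraries (D0-1 to D0-3 and D2-1 to D2-3) each pooled 2 brains, so that the spread between those libraries is that between pools and not between animals. The labels name no transgene or deletion.

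Microglia are the resident macrophages of the brain parenchyma and depend on signalling through CSF1R for survival, which is why its inhibitors empty the brain of most of them. PU.1, encoded by Spi1, is the ETS factor that opens chromatin across the myeloid lineage, and it acts beside RUNX and C/EBP factors, which are shared with monocytes and granulocytes. On that base the zinc finger repressor SALL1, together with MEF2 and MAF factors, maintains the program that sets microglia apart from other macrophages, and loss of Sall1 is known to turn microglia towards an inflammatory state.

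All 9 genes were found in the files by symbol, and over all barcodes they summed to between 21862 UMIs (Sall3) and 341627 UMIs (Cebpb), a UMI being 1 captured transcript counted once. The libraries held between 20257894 and 61230741 UMIs, and no pair of libraries shared more than 7 cell barcodes. D2-3, which the study left out, stood apart: 37.3% of its barcodes exceeded the upper limit of 20000 UMIs, and 549 of its 638 microglia-like cells (86.1%) fell into dividing clusters, against 7.65% to 17.97% in the other D0 and D2 libraries and 0.0470% to 0.211% in Ctrl. It was kept out of the tests, and results are given with it below. The remaining 8 libraries kept 28655 cells after filtering. Clusters were drawn without the 73 genes of the transcription factor lists, so that the levels of these genes did not shape the classes, and were named from marker genes as microglia-like (21725 cells), border-associated macrophage-like (595), monocyte-like (501), dendritic cell-like (592) and neutrophil-like (1175). In the microglia-like cells the 11 microglia markers, Tmem119 and P2ry12 among them, summed to between 31488 and 36168 CPM in Ctrl, between 22844 and 25005 in D0 and between 19418 and 20404 in D2-1 and D2-2. CPM are the UMIs of a gene scaled to the total UMIs of the same cells.

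The factors are encoded at separate places in the genome, with the exception that several share a chromosome. In the GENCODE annotation of GRCm38, in which all are protein-coding, Sall1 (ENSMUSG00000031665) lies at chr8:89027235-89044162 on the minus strand, and Maf (ENSMUSG00000055435) at chr8:115682942-115707794 on the minus strand. Mef2a (ENSMUSG00000030557) lies at chr7:67231163-67372858 on the minus strand, Mef2c (ENSMUSG00000005583) at chr13:83504034-83667080 on the plus strand, and Runx1 (ENSMUSG00000022952) at chr16:92601466-92826149 on the minus strand. Spi1 (ENSMUSG00000002111) at chr2:91082390-91115756, Cebpb (ENSMUSG00000056501) at chr2:167688915-167690418 and Cebpa (ENSMUSG00000034957) at chr7:35119293-35121928 are read from the plus strand. Sall3 is ENSMUSG00000024565. The 250 bases before the start were taken from RefSeq (GRCm38.p6) for 6 of the 9 genes, in 11 windows, and both strands were searched for core motifs of the factors themselves. These were GAGGAAG for PU.1, found in 10.6% of the 32851 windows of all genes, TTGCNNAA for C/EBP (9.56%), the MEF2 core by its name (3.2%), TGTGGTT for RUNX (4.4%) and TGCTGAC for MAF (3.81%). Among the windows of the 9 genes, 2 of 11 held a match, in each case to the PU.1 letters, 1 before a start of Mef2a and 1 before a start of Mef2c. A match of this length describes the letters and not a bound site. Windows are shown for Sall1 and Mef2a, which fell after CSF1R inhibition, and for Cebpb, which rose, each 5′ to 3′ on the strand of the gene with matches in capitals:
Sall1, chr8:89044163-89044412, minus strand: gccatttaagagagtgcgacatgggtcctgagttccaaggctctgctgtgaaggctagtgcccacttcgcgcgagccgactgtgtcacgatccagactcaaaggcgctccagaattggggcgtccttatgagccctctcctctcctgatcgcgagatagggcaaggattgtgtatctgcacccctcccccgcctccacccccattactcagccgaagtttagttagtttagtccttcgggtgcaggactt
Mef2a, chr7:67372859-67373108, minus strand: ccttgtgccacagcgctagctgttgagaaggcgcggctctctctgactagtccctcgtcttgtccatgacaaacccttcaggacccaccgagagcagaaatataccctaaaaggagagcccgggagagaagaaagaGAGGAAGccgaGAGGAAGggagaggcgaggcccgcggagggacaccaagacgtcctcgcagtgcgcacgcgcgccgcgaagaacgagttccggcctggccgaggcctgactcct
Cebpb, chr2:167688665-167688914, plus strand: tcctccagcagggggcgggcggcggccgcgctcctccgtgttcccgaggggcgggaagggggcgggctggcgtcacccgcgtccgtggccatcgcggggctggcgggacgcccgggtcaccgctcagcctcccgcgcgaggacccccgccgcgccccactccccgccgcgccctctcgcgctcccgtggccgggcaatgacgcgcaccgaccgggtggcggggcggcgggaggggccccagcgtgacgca
In the Mef2a window the PU.1 letters stood 114 to 108 and 103 to 97 bases before the start, without overlap with another motif. The Sall1 and Cebpb windows held none of the 5 motifs, and their GC content was 56.4% and 81.6%.

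The levels of the 9 factors were first compared between cell classes, which asks how far each is particular to microglia. Sall1, Sall3, Mef2a, Mef2c and Cebpa were highest in microglia-like cells, and Maf was high in microglia-like and border-associated macrophage-like cells. By class means, Spi1 and Cebpb were highest in monocyte- and neutrophil-like cells, although Spi1 in D0-1 and D2-2 was highest in border-associated macrophage-like cells. Each class was compared with the microglia-like cells of the same library on log2(CPM + 10), over libraries with at least 20 cells of the class, by a two-sided exact permutation test with sign flips, and the p-values were adjusted over all 36 pairs of gene and class. Of these pairs, 26 passed an adjusted p of 0.05, each at the smallest p that its number of libraries allows. Passing thus means the same direction in every library. The share of all genes that would pass was not computed, so the count is not read as particular to these factors. The border-associated macrophage pairs could not pass, since 5 libraries allow no p under 0.0625. The pairs of Sall1, Sall3, Maf, Mef2a and Mef2c with this class each passed in 1 of 5 alternative settings. The class means below cover different mixes of Ctrl, D0 and D2 libraries, and only the differences within a library compare the same libraries.

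**Figure D1:**
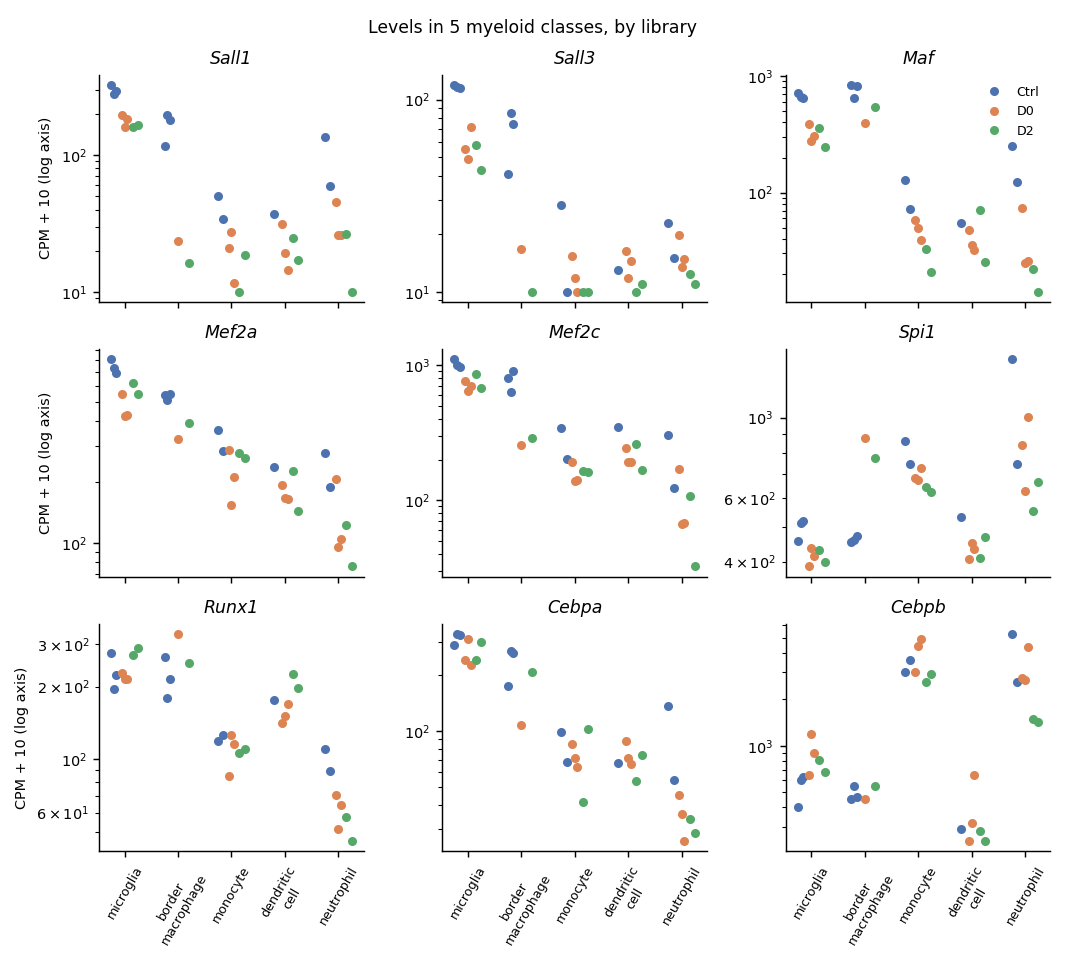
Levels of the 9 genes in the 5 myeloid classes, as CPM + 10 on a log axis, with 1 point per library of at least 20 cells and colours for Ctrl, D0 and D2 (D2-3 not shown). Sall1 and Sall3 points of monocyte-, dendritic cell- and neutrophil-like cells lie below those of microglia-like cells, and Cebpb points of monocyte- and neutrophil-like cells lie above them. Maf points of these classes also lie below, except the neutrophil-like point of Ctrl-2 (240.3 CPM), just above the lowest microglia-like point (237.6 CPM, D2).

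Sall1, the zinc finger repressor most closely tied to microglial identity, averaged 211 ± 68.0 CPM (SD, n = 8 libraries) in microglia-like cells and ranged there from 150.5 to 317 CPM. Border-associated macrophage-like cells followed with 97.1 ± 85.2 CPM (n = 5), neutrophil-like cells with 37.0 ± 42.1 (n = 7), monocyte-like cells with 14.7 ± 14.1 (n = 7) and dendritic cell-like cells with 14.0 ± 8.83 (n = 6). The range of border-associated macrophage-like cells overlapped that of microglia-like cells, and the last 4 classes overlapped each other. Within libraries, Sall1 in border-associated macrophage-like cells was lower in 5 of 5, with a log2 difference of -1.83 (range -3.37 to -0.52). Against microglia-like cells of the same library, the log2 difference was -3.22 in monocyte-like cells (lower in 7 of 7 libraries, adjusted p = 0.0313, exact permutation test), -3.08 in dendritic cell-like cells (6 of 6, adjusted p = 0.0433) and -2.51 in neutrophil-like cells (7 of 7, adjusted p = 0.0313). Sall3, a paralog of Sall1, gave differences of -2.42, -2.30 and -2.16 in the same classes, with the same adjusted p-values and no library in the other direction.

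Free RNA can place microglial transcripts in other droplets, and microglia markers were found in every class. Their summed level in monocyte-like cells was 2.96% to 13.4% of that in the microglia-like cells of the same library, in dendritic cell-like cells 5.601% to 13.02%, in neutrophil-like cells 3.44% to 31.5%, and in endothelial-like cells, which are not myeloid, 8.50% to 14.6%. The microglia-like level of each factor multiplied by that ratio gives a carried level, the level that would be found if all microglia marker RNA in the class came from microglia. For Sall1 it was 14.9 CPM in monocyte-like cells against 14.7 measured, with 4 of 7 libraries above the carried level, and 17.5 against 14.0 in dendritic cell-like cells, with 0 of 6 above. Endothelial-like cells, measured at 13.4 CPM, had a carried level of 23.5 CPM. Sall1 expression in monocyte- and dendritic cell-like cells was thus not detectable above this estimate, which itself exceeded the measured level in 7 of 8 libraries of endothelial-like cells. In neutrophil-like cells the carried level was 29.96 against 37.0 CPM measured, with 5 of 7 libraries above it. Of cells thinned to 2000 UMIs, 34.0% of microglia-like cells had a Sall1 UMI (71.6% unthinned, mean of 8 libraries), compared to 1.77% of monocyte-like (6.16% unthinned) and 1.35% of endothelial-like cells (3.46% unthinned), whose median depths before thinning were 7039, 6368 and 4132 UMIs.

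**Figure D2:**
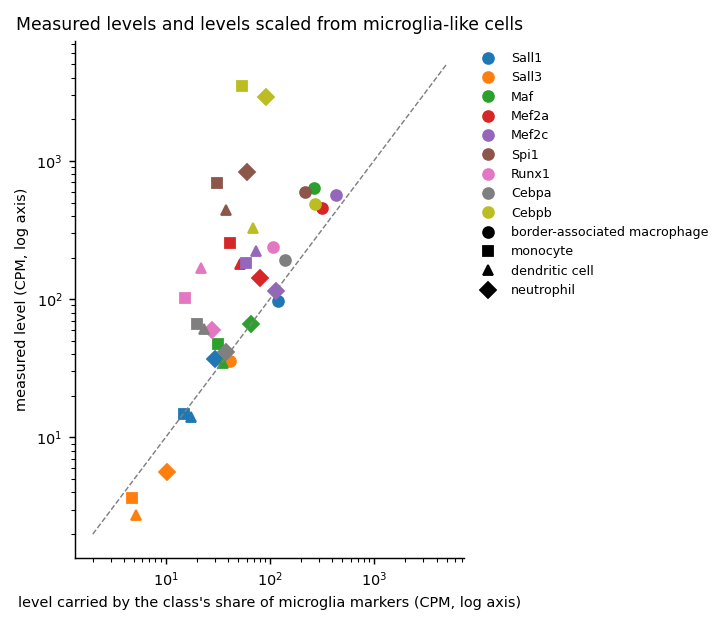
Measured level of each gene in 4 classes (vertical) against the microglia-like level scaled by the class's share of microglia markers (horizontal), both in CPM on log axes as means over libraries, with a dashed line where they are equal. Sall1 and Sall3 lie close to or below the line in all 4 classes, and Spi1 and Cebpb lie far above it in monocyte- and neutrophil-like cells.

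Border-associated macrophages are the long-lived macrophages of the meninges, perivascular spaces and choroid plexus, and are known for Mrc1 and Pf4. Their Sall1 level was 107, 187 and 172 CPM in Ctrl-1, Ctrl-2 and Ctrl-3, 13.3 CPM in D0-1 and 6.17 CPM in D2-2, the libraries with at least 20 such cells. The D0 and D2 values, each from 1 library, lay far under the Ctrl values. Microglia markers in these cells moved in the same direction, from 45.5% to 64.7% of the microglia-like level in Ctrl to 33.0% in D0-1 and 32.4% in D2-2. Endothelial-like cells of the Ctrl libraries stood at 8.50% to 10.8%, so the ratio in border-associated macrophage-like cells does not measure free RNA.

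Maf, the bZIP factor c-MAF of tissue macrophages, reached 641 ± 191 CPM in border-associated macrophage-like cells (n = 5) and 442 ± 194 CPM in microglia-like cells (n = 8). In the same 5 libraries the microglia-like cells averaged 524.5 CPM. Within libraries the difference was 0.34 on the log2 scale, higher in 4 of 5 libraries (p = 0.125, exact permutation test). With 5 libraries this test could not pass, so it does not decide whether Maf differs between these 2 classes. The pair passed in 1 of 5 alternative settings. In monocyte-, dendritic cell- and neutrophil-like cells Maf averaged 47.6, 34.5 and 66.5 CPM, with log2 differences from microglia-like cells of -2.96, -3.10 and -3.06, and carried levels of 31.8, 35.5 and 66.4 CPM. The Maf counts of dendritic cell- and neutrophil-like cells thus lay near the carried level, with 4 of 6 and 1 of 7 libraries above it.

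The MADS box factors Mef2a and Mef2c act in muscle, neurons and lymphoid cells as well as in microglia, and their levels were graded. Mef2a averaged 589.6 ± 139 CPM in microglia-like cells (n = 8), 453 ± 98.8 in border-associated macrophage-like (n = 5), 254 ± 65.8 in monocyte-like (n = 7), 179 ± 37.1 in dendritic cell-like (n = 6) and 143 ± 73.4 in neutrophil-like cells (n = 7). Mef2c followed with 829 ± 170 CPM in microglia-like cells, 568 ± 295 in border-associated macrophage-like, 224 ± 67.5 in dendritic cell-like, 182 ± 70.5 in monocyte-like and 115 ± 91.0 in neutrophil-like cells. For each gene the ranges of all neighbouring classes overlapped, those of microglia-like and border-associated macrophage-like cells included. In monocyte-like cells the log2 difference from microglia-like cells was -1.13 for Mef2a and -2.11 for Mef2c, lower in 7 of 7 libraries each, and their measured levels exceeded the carried ones of 41.7 and 58.7 CPM in 7 of 7 libraries. In neutrophil-like cells the carried level of Mef2c was 114 CPM, with 4 of 7 libraries above it, so its measured level there lay at the carried one, while that of Mef2a was 81.3 CPM, with 7 of 7 above. Endothelial-like cells, in which MEF2 factors also act, held 283 CPM of Mef2a and 228 CPM of Mef2c.

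Spi1, Runx1 and Cebpa, the factors shared across the myeloid lineage, divided. Spi1 averaged 830.0 CPM in neutrophil-like and 697 CPM in monocyte-like cells against 433 CPM in the microglia-like cells of the same 7 libraries, with log2 differences of 0.86 and 0.68, higher in 7 of 7 libraries each (adjusted p = 0.0313, exact permutation test). In dendritic cell-like cells the Spi1 difference was 0.09 (range -0.07 to 0.23 over 6 libraries, adjusted p = 0.17). Border-associated macrophage-like cells averaged 598 CPM of Spi1, higher than the microglia-like cells in 2 of 5 libraries. In those 2, D0-1 and D2-2, they held 870 and 765 CPM, above the neutrophil-like levels of 833 and 654 CPM. Runx1, known from definitive haematopoiesis, was 229 ± 34.5 CPM in microglia-like and 238 ± 56.8 CPM in border-associated macrophage-like cells, a difference of 0.02 with 1 of 5 libraries higher, and 103 ± 14.3 CPM in monocyte-like cells (-1.05, lower in 7 of 7). Cebpa, which directs granulocyte and monocyte progenitors, was 272 ± 41.7 CPM in microglia-like cells and lower in monocyte-like (65.9 CPM, log2 difference -1.93), dendritic cell-like (60.5 CPM, -1.93) and neutrophil-like cells (41.3 CPM, -2.68, near the carried level of 37.7 CPM), in every library tested.

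Cebpb, the C/EBP factor of inflammatory and stress-induced myelopoiesis, was higher than in microglia-like cells in monocyte- and neutrophil-like cells and lower in dendritic cell-like cells. Monocyte-like cells held 3472 ± 872 CPM (n = 7) and neutrophil-like cells 2921 CPM, compared to 724 ± 238 CPM in microglia-like (n = 8), 486 ± 51.2 CPM in border-associated macrophage-like (n = 5) and 328 ± 156 CPM in dendritic cell-like cells (n = 6). The difference from microglia-like cells was 2.16 in monocyte-like and 1.80 in neutrophil-like cells, higher in 7 of 7 libraries each (adjusted p = 0.0313, exact permutation test), and -1.21 in dendritic cell-like cells (lower in 6 of 6, adjusted p = 0.0433). With D2-3 included, Runx1 in dendritic cell-like cells was the only one of the 26 pairs that no longer passed (log2 difference -0.26, adjusted p = 0.38).

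The second question was whether CSF1R inhibition and the first 2 days of repopulation changed the factors in the microglia-like cells that remained. At D0, 5 of the 9 factors fell (Sall1, Sall3, Maf, Mef2a and Mef2c), Cebpb rose, and Spi1, Runx1 and Cebpa did not pass the test. At D2, Sall1, Sall3 and Maf were lower than in Ctrl, and the other 6 did not pass. UMIs summed per library were put to edgeR's quasi-likelihood test, scaled by TMM, with Benjamini-Hochberg adjustment over all 12395 genes tested, and the 9 factors all passed the filter on low counts. At D0, 6 of 9 were called where 19.9% of all genes were (12.3% higher and 7.58% lower). At D2, 3 of 9 were called where 18.6% of all genes were (10.9% higher and 7.76% lower). Both comparisons share the Ctrl libraries.

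**Figure D3:**
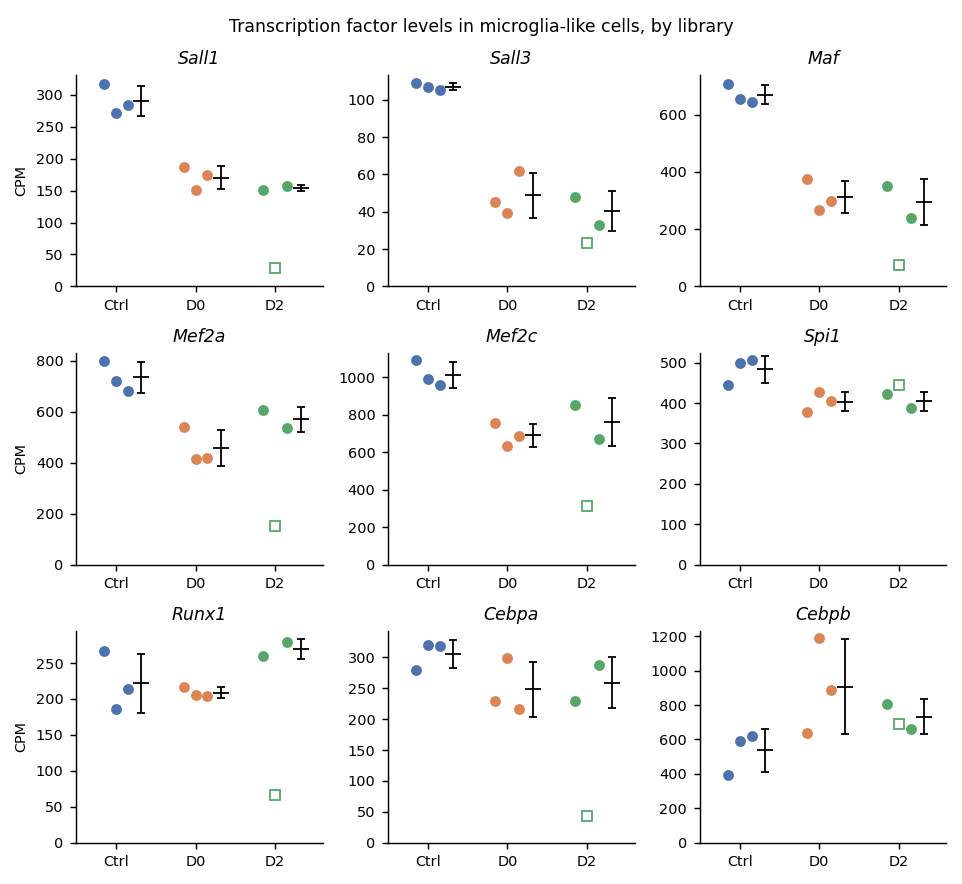
Level of each gene (CPM, linear axis from 0) in microglia-like cells, with 1 point per library, the mean and SD of the group beside it, and D2-3 as an open square outside the mean. For Sall1, Sall3 and Maf every D0 and D2 library lies below every Ctrl library, while Runx1 and Cebpa points of D0 and Ctrl overlap.

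Sall1 stood at 317, 271 and 283 CPM in the 3 Ctrl libraries, at 187, 150.5 and 174 CPM in the 3 D0 libraries and at 151 and 157 CPM in D2-1 and D2-2. Every treated library lay below every Ctrl library, and D0 and D2 overlapped. The fitted log2 fold change was -0.57 ± 0.10 (SE) at D0 (adjusted p = 0.0048, edgeR) and -0.81 ± 0.12 at D2 (adjusted p = 0.0014).

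Sall3 was at 109, 107 and 105 CPM in Ctrl, at 45.0, 39.1 and 62.1 CPM in D0 and at 47.8 and 33.0 CPM in D2. The Ctrl libraries lay within a few CPM of each other and above all treated ones. Sall3 fell by 0.94 ± 0.18 on the log2 scale at D0 (adjusted p = 0.0064, edgeR), a change that 3.2% of the genes tested matched or exceeded downwards, and by 1.30 ± 0.21 at D2 (adjusted p = 0.0023).

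Maf showed 709, 656 and 645 CPM in Ctrl, 375, 265 and 299 CPM in D0 and 351 and 238 CPM in D2. The groups were separated by a gap wider than the spread within Ctrl. The log2 fold change was -0.90 ± 0.15 at D0 (adjusted p = 0.0031, edgeR) and -1.08 ± 0.17 at D2 (adjusted p = 0.0023), and 3.7% and 3.6% of all genes changed as much or more in that direction.

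Mef2a was at 799, 722 and 682 CPM in Ctrl, 539, 414 and 419.6 CPM in D0, and 605 and 536 CPM in D2. It was lower in each treated library than in any Ctrl library. The fall of 0.48 ± 0.11 on the log2 scale passed at D0 (adjusted p = 0.017, edgeR), whereas at D2 the value was -0.26 ± 0.13 (adjusted p = 0.20). Mef2c, known to restrain inflammatory responses of microglia, had 1092, 990.3 and 958 CPM in Ctrl, 755, 632 and 685 CPM in D0, and 854 and 670.0 CPM in D2. Its fold change was -0.35 ± 0.11 at D0, at the edge of the threshold (adjusted p = 0.049, edgeR), and -0.30 ± 0.12 at D2 (adjusted p = 0.12). It passed at D0 under 9 of 25 alternative settings, and Mef2a under 17.

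Cebpb was the factor that rose. Its levels were 395, 592 and 623 CPM in Ctrl, 640.2, 1190.4 and 885 CPM in D0, and 804 and 662 CPM in D2. The lowest D0 library, D0-1, stood just above the highest Ctrl library, Ctrl-3, and D0-2 stood far above the rest. The log2 fold change was 0.96 ± 0.26 at D0 (adjusted p = 0.031, edgeR) and 0.55 ± 0.29 at D2 (adjusted p = 0.22), and the D0 call was kept under 17 of 25 settings. The 9 neutrophil markers summed to 7.02 to 19.0 CPM in the microglia-like cells of Ctrl, 57.1 to 211 CPM in D0 and 53.2 to 202 CPM in D2. In neutrophil-like cells the same markers summed to 348278 CPM, beside a mean of 2921 CPM of Cebpb. The part of neutrophil RNA in the rise of Cebpb was not tested.

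Spi1, Runx1 and Cebpa were not called at either time. Spi1 had 446, 499.97 and 507 CPM in Ctrl, 379, 428 and 406 CPM in D0, and 421 and 388 CPM in D2. Although the treated libraries lay below Ctrl in CPM, the fitted change was -0.06 ± 0.12 at D0 (adjusted p = 0.77, edgeR) and -0.16 ± 0.14 at D2 (adjusted p = 0.47). Runx1 had 266, 186 and 213 CPM in Ctrl, 217, 205 and 204 CPM in D0, and 260.1 and 279.7 CPM in D2, and both treated groups overlapped Ctrl while D2 lay above D0. Its change was 0.12 ± 0.12 at D0 (adjusted p = 0.52) and 0.40 ± 0.14 at D2 (adjusted p = 0.069), which passed with DESeq2 (adjusted p = 0.041) and without Ctrl-1 (adjusted p = 0.014). Cebpa had 279.7, 319.9 and 318 CPM in Ctrl, 229, 299 and 216 CPM in D0, and 229.7 and 288 CPM in D2, with overlap between groups and changes of -0.10 ± 0.17 and -0.13 ± 0.19 (adjusted p = 0.73 and 0.68).

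**Figure D4:**
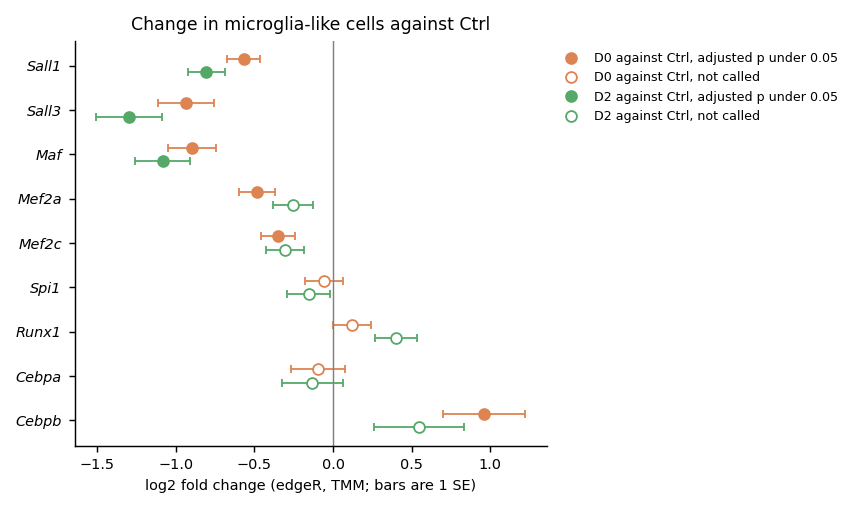
Fitted log2 fold change against Ctrl in microglia-like cells (horizontal, edgeR with TMM scaling, bars of 1 SE) for D0 and D2, with filled points where the adjusted p was under 0.05. At D0, 6 points are filled, from -0.94 (Sall3) to 0.96 (Cebpb), and at D2 the 3 filled points are Sall1, Sall3 and Maf.

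The libraries of D0 and Ctrl did not overlap for 7 of the 9 factors in CPM, where 48.3% of all genes did not overlap (12.5% higher and 35.9% lower in D0), and those of D2 and Ctrl for 7 of 9, where 52.9% did not (18.1% higher and 34.8% lower in D2). CPM and fitted values differ since the TMM factors absorb a shift common to many genes. With total UMIs in place of TMM, the median change of all genes at D0 moved from -0.05 to -0.26 and the share of called genes that were higher from 62.0% to 30.1%, while the 6 calls held and Runx1 turned to -0.09. At D2 the median moved from -0.03 to -0.13 and the share from 58.4% to 42.2%, with 3 factors called under each scaling.

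Several measures moved with the treatment. Dividing clusters made up 7.65% to 17.97% of microglia-like cells in D0, D2-1 and D2-2, and without them 3 factors were called at D0 (Sall1, Sall3 and Maf, at -0.50, -0.90 and -0.81) with Cebpb at 0.96 (adjusted p = 0.054, edgeR). By their headers, Ctrl-1 and all D0 and tested D2 libraries were made with version 3.0.2 of Cell Ranger, and the other 3 with version 3.1.0. Within the 3.0.2 libraries, which leave 1 Ctrl library, the D0 values were -0.61 for Sall1, -0.88 for Sall3, -0.89 for Maf, -0.52 for Mef2a, -0.37 for Mef2c and 1.502 for Cebpb, and 0 factors passed by edgeR (712 genes called). With the version as a term, 4 passed at D0, which were Sall1, Sall3, Maf and Cebpb. Leaving out Ctrl-2, D0-2 or D0-3 brought the calls at D0 to 3 in each case. With D2-3 in the fit, whose microglia-like cells held 28.5 CPM of Sall1, 75.4 of Maf, 444 of Spi1 and 687 of Cebpb, 0 factors passed at D0 (Sall3 had the lowest adjusted p, 0.064) and 513 genes were called, whereas Sall3 and Maf still passed at D2.

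D2 was also compared with D0, which follows the withdrawal of the inhibitor. None of the 9 factors and 0 of 12395 genes (0%) passed by edgeR, with 852 genes and 0 factors at an unadjusted p under 0.05, and 27 genes but 0 factors by DESeq2. The libraries did not overlap for 1 of the 9, Runx1, where 23.9% of all genes did not (16.9% higher and 7.01% lower in D2). Sall1 gave -0.24 ± 0.12 (SE), Sall3 -0.36 ± 0.20, Maf -0.18 ± 0.17, Mef2a 0.23 ± 0.13, Mef2c 0.05 ± 0.12, Runx1 0.28 ± 0.14 and Cebpb -0.41 ± 0.29. Any recovery of Sall1, Sall3 or Maf towards Ctrl was therefore not detectable at 2 days with these libraries.

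Microglia-like cells fell into 11 clusters, drawn without the factors, and these were occupied unequally by groups and libraries. The cluster led by Bank1 and Sox4 (9) held 10.6% to 14.3% of the microglia-like cells of each Ctrl library and at most 0.798% of any D0 or D2 library. Cluster 2 held 17.2% to 34.9% of D0 libraries and 2.11% to 4.10% of Ctrl libraries, and the cluster led by Chst2 (1) held 36.6% and 46.3% of D2-1 and D2-2 and 5.13% to 33.6% of D0 libraries. Other clusters were filled unevenly by the libraries of 1 group. The cluster led by Csmd3 and Bank1 (4) held 56.2% of Ctrl-1 but 10.2% and 9.49% of Ctrl-2 and Ctrl-3. Those led by P2ry13 and Sox4 (3) and by Klf2 and Jun (6) held 9.16% and 6.57% of Ctrl-1, 42.5% and 26.0% of Ctrl-2, and 40.5% and 29.9% of Ctrl-3. The cluster led by Dusp2 and Gadd45b (5) held 35.4% of D0-2 against 10.5% and 16.0% of D0-1 and D0-3, and that led by Ccl12 and Nes (8) held 27.8% of D2-1 against 0.392% of D2-2.

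The levels across clusters are given as a description. Cebpb was highest, at 1397 ± 337 CPM (SD over libraries), in the cluster led by Dusp2, Gadd45b and the cytokine genes Cxcl2 and Tnf, and lowest, at 361 ± 86.9 CPM, in the Csmd3 cluster, which held the highest Sall1 level at 295 ± 31.7 CPM. The clusters hold different groups, so Maf was read within groups. In Ctrl it averaged 838 ± 70.0 CPM (SD, n = 3) in the Csmd3 cluster, 764 ± 8.52 CPM in the Bank1 and Sox4 cluster and 325 ± 58.3 CPM in the Dusp2 cluster, the lowest of the 9 clusters with Ctrl values. In D0 the Csmd3 cluster was again highest at 535.5 ± 18.8 CPM, and the dividing cluster led by Ccnb2 (11), which has no Ctrl value, stood at 205 ± 42.6 CPM. Sall1 was lowest in that dividing cluster, at 101 ± 7.90 CPM over D0 and D2 libraries. Mean Spi1 levels ran from 459 to 500.4 CPM over the clusters in Ctrl.

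**Figure D5:**
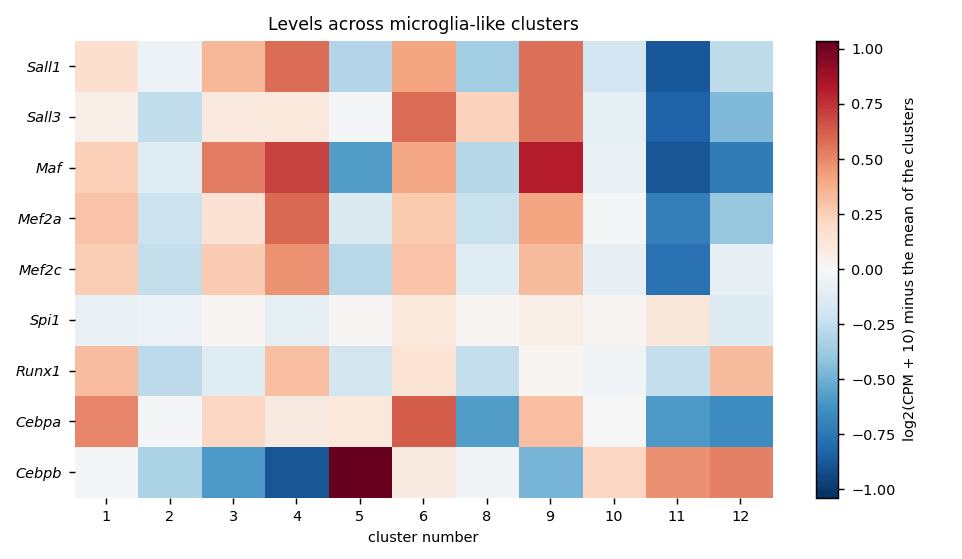
Level of each gene in the 11 microglia-like clusters, as log2(CPM + 10) of the mean over libraries minus the mean over clusters (the groups behind a cluster differ), in a colour scale from blue (lower) to red (higher), with each cluster given by its number. Sall1 and Maf are highest in clusters 4 and 9 and lowest in cluster 11, Cebpb is highest in cluster 5, and the Spi1 row is near 0 throughout.

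The factors were next read within clusters, over the 8 clusters with 2 or more Ctrl and D0 libraries of at least 20 cells and the 5 with 2 or more Ctrl and D2 libraries. Sall3 was lower without overlap in 8 of 8 clusters at D0 and 5 of 5 at D2, with median log2 differences of -0.88 and -1.13. Maf was lower in 7 of 8 and 5 of 5 (medians -0.51 and -0.68), and Sall1 in 4 of 8 and 4 of 5 (medians -0.28 and -0.50). Of all genes, 17.0%, 7.79%, 16.2%, 16.6%, 7.41%, 21.8%, 21.0% and 11.1% were lower without overlap at D0 in clusters 1, 2, 3, 4, 5, 6, 8 and 10, and 25.3%, 12.4%, 27.2%, 9.71% and 15.4% at D2 in clusters 1, 2, 4, 5 and 10. Mef2a was lower in 7 of 8 clusters at D0 and 0 of 5 at D2, Mef2c in 5 of 8 and 0 of 5, and Spi1 in 7 of 8 and 3 of 5. All these values are on unscaled CPM. The Spi1 medians were -0.27 and -0.29, so the Sall1 median of -0.28 at D0 did not stand apart from that of an uncalled factor. Runx1 was higher in 0 of 8 and 3 of 5. Cebpb was higher in 2 of 8 clusters at D0 and 0 of 5 at D2. In the same order of clusters, 11.3%, 10.1%, 3.15%, 3.82%, 12.7%, 8.41%, 13% and 5.93% of all genes were higher without overlap at D0, and 23.8%, 13.3%, 9.02%, 19.6% and 12.5% at D2. In the Dusp2 cluster the Cebpb levels of the D0 libraries (1001 to 1643 CPM) lay inside the Ctrl range of 949 to 1912 CPM. The median log2 difference of Cebpb within clusters was 0.27 at D0 and 0.04 at D2.

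Dividing and other microglia-like cells of the same library were set side by side in the 5 libraries with at least 20 dividing cells, D0-1 to D0-3, D2-1 and D2-2. Cebpa averaged 157 ± 47.0 CPM in dividing against 268 ± 45.4 CPM in other cells, Maf 213 ± 25.9 against 319.5 ± 61.3 CPM, Mef2a 371 ± 69.7 against 524 ± 85.8 CPM and Sall1 134 ± 8.07 against 168 ± 17.8 CPM. Each was lower in dividing cells in 5 of 5 libraries, and so was Mef2c, with means of 612.6 against 736.4 CPM. Cebpb was higher in 5 of 5, with 965 ± 223 against 816 ± 221 CPM. Spi1 was higher in 4 of 5, Runx1 in 3 of 5 and Sall3 in 1 of 5. The share of all genes lower in every library was not computed. The clusters were defined from these cells, so no test is given.

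Related genes were read from 4 lists. Of 17 paralogs and partners of the factors, 11 could be tested, and 3 fell and 0 rose at both D0 and D2, which were Sall2, Mafg and Cebpd, where 12.3% of all genes rose and 7.58% fell at D0 and 10.9% and 7.76% at D2. Cebpd, a C/EBP factor of the acute-phase response, went from 165 ± 3.82 CPM in Ctrl to 80.6 ± 20.3 CPM in D0 (log2 fold change -0.83 ± 0.25, adjusted p = 0.044, edgeR) and 69.9 ± 36.4 CPM in D2 (-1.13 ± 0.29, adjusted p = 0.024), in the opposite direction to Cebpb. Sall2 and Mafg, named after their values were seen for completeness of the count, fell by 0.94 and 0.46 on the log2 scale at D0. Sall2 did not meet the limits of at least 20 CPM and no overlap between libraries. The median of the list was -0.21 at D0 and -0.29 at D2, against -0.35 and -0.26 over the 9 factors and -0.05 and -0.03 over all genes.

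Among 28 other lineage transcription factors of myeloid cells, 27 were tested. At D0, 3 rose and 5 fell, and at D2, 3 rose and 6 fell (medians -0.02 and 0.02). Of all genes, 12.3% rose and 7.58% fell at D0, and 10.9% rose and 7.76% fell at D2. The shares that rose thus lay near those of all genes, and the shares that fell lay above them. Those that rose at both times, named after their values were seen, were Batf3, Bhlhe40 and Tfec, with D0 changes of 0.59, 3.37 and 2.02. At D0 Batf3 met the limits of at least 20 CPM and no overlap between libraries, and Bhlhe40 and Tfec did not. The 5 that fell at D0, also named after their values were seen, were Bach2, Hhex, Ets1, Ikzf1 and Fli1. They changed by -0.59, -0.555, -0.50, -0.44 and -0.42, and each met these limits. Klf4, a zinc finger factor of monocyte differentiation, fell by 0.96 ± 0.27 at D2 (adjusted p = 0.036, edgeR), from 69.0 to 32.9 CPM. Of 19 stimulus-responsive transcription factors, 6 rose and 3 fell at D0 and 3 rose and 3 fell at D2 (medians 0.29 and 0.04), beside 12.3% of all genes higher and 7.58% lower at D0 and 10.9% and 7.76% at D2. Ier2, an immediate-early gene, rose from 205 ± 45.7 to 306 ± 15.4 CPM at D0 (log2 fold change 0.78 ± 0.18, adjusted p = 0.016, edgeR), while Jun, Jund and Rela fell by 0.45, 0.56 and 0.43. Nr4a2 and Nr4a3, chosen after their values were seen, rose by 3.38 and 2.12. Neither met the limits of at least 20 CPM and no overlap between libraries.

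The 13 homeostatic genes of microglia share members with the markers that named the clusters, and 8 fell at D0 and 10 at D2, with 0 rising (medians -0.60 and -0.91). P2ry12, the ADP receptor of surveying microglia, went from 2825 ± 309 CPM (SD, n = 3) in Ctrl to 1091 ± 217 CPM in D0 (log2 fold change -1.17 ± 0.16, adjusted p = 9.85e-04, edgeR) and 572 ± 0.854 CPM in D2 (-2.20 ± 0.20). P2ry13, the fructose transporter gene Slc2a5 and Tmem119 fell as well, with changes of -1.57, -1.13 and -0.87 at D0 and of -2.43, -2.40 and -1.86 at D2. Selplg changed by -0.64 and -1.50, and Fcrls by -0.61 and -1.26. Sall1 changed by -0.57 and -0.81 in the same fits.

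In the other myeloid classes the same conditions were compared where each group had at least 2 libraries of 20 cells, which left the monocyte- and neutrophil-like cells against Ctrl. There 8 of the 9 factors passed the filter on low counts, Sall3 being left out. At D0, 0 of 8 were called in monocyte-like cells (0.802% of all genes, edgeR, 4 at an unadjusted p under 0.05) and 0 of 8 in neutrophil-like cells (0.11% of all genes, 3 unadjusted). With the replicate number as a block, Maf passed in monocyte-like cells at D0 (log2 fold change -1.41 ± 0.30, adjusted p = 0.049, edgeR, 1.88% of genes called). At D2, Maf was called in each: from 119 and 62.9 CPM in Ctrl-2 and Ctrl-3 to 22.8 and 10.7 CPM in D2-1 and D2-2 in monocyte-like cells (log2 fold change -2.73 ± 0.45, adjusted p = 0.020, edgeR, 1.33% of genes called), and from 240.3 and 114 CPM to 11.9 and 4.09 CPM in neutrophil-like cells (-4.30 ± 0.71, adjusted p = 0.015, 2.98% of genes called). The Ctrl and D2 libraries did not overlap in either class, but the share of all genes without overlap was not computed there. With 2 libraries in each group, this separation is not read as support for the calls. In monocyte-like cells the summed microglia markers went from 4833 and 1670 CPM in Ctrl-2 and Ctrl-3 to 811 and 764 CPM in D2-1 and D2-2, and the carried Maf level from 87.7 and 31.1 CPM to 14.6 and 8.90 CPM. Their part in the fall of Maf was not tested. Maf in neutrophil-like cells lay at the carried level, and the summed microglia markers there went from 18.1% to 31.5% of the microglia-like level in Ctrl to 3.44% to 7.03% in D2. Without Ctrl-2 the count of called factors at D2 was 0 in both classes.

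Whether a change differed between classes was tested as an interaction with the library as a block. Relative to microglia-like cells, the Maf change at D2 differed by -1.53 ± 0.46 (SE) in monocyte-like cells (adjusted p = 0.035, edgeR, 3.13% of genes called) and at D0 by -1.56 ± 0.40 in neutrophil-like cells (adjusted p = 0.015, 1.12% of genes called). In neutrophil-like cells at D2, the changes of Maf, Sall1 and Cebpb differed by -3.07 ± 0.54, -2.77 ± 0.60 and -1.24 ± 0.40 (adjusted p = 3.94e-06, 4.24e-04 and 0.048, edgeR, 3.83% of genes called). Sall1 there was 125 and 49.6 CPM in Ctrl-2 and Ctrl-3 and 16.7 and 0 CPM in D2-1 and D2-2. Its carried levels in these libraries were 85.4, 51.3, 10.6 and 5.41 CPM, and those of Maf 207, 117, 24.7 and 8.17 CPM. The part of microglial RNA in these differences was not tested. For D0 in monocyte-like cells 0 of 9 factors passed (2.57% of genes called), and for D2 against D0 in dendritic cell-like cells 0 of 9 (0.00851%). Cebpb in neutrophil-like cells was 5264.5 and 2555 CPM in Ctrl-2 and Ctrl-3 and 1487 and 1412 CPM in D2-1 and D2-2, and its carried level averaged 92.6 CPM.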

How the data were processed

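CD11b+ mouse brain cells were measured in 9 10x Genomics libraries. The authors aligned reads to mm10 and deposited raw UMI counts per gene and barcode, unnormalized, for barcodes called as cells. The labels name Cell Ranger 3.1.0, the file headers 3.0.2 in 6 libraries and 3.1.0 in 3. Column totals ranged from 20257894 to 61230741 UMIs, and intervals between libraries cover their spread only. Of the value columns, 0 were without a sample.

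Barcodes outside 500 to 20000 UMIs, below 200 genes or above 10% mitochondrial UMIs were removed, and cells were clustered (scanpy 1.11.5, leidenalg 0.10.2, python 3.11.15; 10 principal components, 3000 variable genes, 20 neighbours, resolution 0.6). A cluster was named for another type where at least 3 markers of that type were raised, and microglia-like by microglia markers over 100 CPM. Clusters left unnamed held 2343 cells of the 8 libraries, with a median of 1533 UMIs, and were not part of the microglia-like sums. Microglia markers alone did not set them apart. At a resolution of 1.0, unnamed clusters had 11 of these markers over 100 CPM, at a median UMI count 0.189 to 0.297 times that of the library. Such rebuilt names may differ from those of the study. Doublets were kept, since Scrublet marked 59 cells (0.194%), so the caller had not worked. D2-3, left out by the study, was placed by 30 nearest neighbours. UMIs were summed per library and class and tested with edgeR 4.0.16 (R 4.3.3; TMM, filterByExpr, quasi-likelihood test, 8 libraries in 1 fit, Benjamini-Hochberg adjustment, called under 0.05), and classes were compared by exact permutation tests (scipy 1.17.1). DESeq2 1.42.0 was an alternative. The steps were tested on simulated data. The members and gene lists were chosen with earlier results of these data known. Besides the 9 factors, the text names up to 8 listed genes per comparison with an adjusted p under 0.05, at least 20 CPM and no overlap, by size of change, and the 3 genes with the most similar pattern per factor. Other genes of the lists, some of them under 20 CPM or with overlap, were named outside this rule.

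The titles number the libraries. Deviations from group means correlated between same-numbered Ctrl and D0 libraries with r of 0.410, 0.196 and 0.173. Between differently numbered ones r ran from -0.381 (Ctrl-3 and D0-1) to 0.296 (Ctrl-3 and D0-2), so pairs are not established. The main tests between conditions were unpaired, and the replicate number was used as a block in an alternative only. The replicate number as a block left 6 factors called at D0. Alternatives covered scaling, filters, tool, libraries, cells and clustering, and 16 were planned. Those on Cell Ranger 3.0.2 libraries and on total UMIs were added after seeing the data. The leading genes of some clusters are not reported here.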

Additional observations from a re-analysis of the deposited data

Results flagged for a closer look

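The changes of Maf, Sall1 and Cebpb differed between cell classes by the test of the difference itself, and the share of all genes called in each such test is given above. Maf at D2 against Ctrl changed by -1.53 on the log2 scale in monocyte-like relative to microglia-like cells, and by -3.07 in neutrophil-like relative to microglia-like cells. At D0 the neutrophil-like value for Maf was -1.56. Sall1 and Cebpb at D2 differed by -2.77 and -1.24 in neutrophil-like cells. The summed microglia markers were also lower in D2 than in Ctrl in neutrophil-like cells and in monocyte-like cells (764 and 811 CPM against 1670 and 4833 CPM), and their part in these values was not tested. In neutrophil-like cells Maf averaged 66.5 CPM against a carried level of 66.4 CPM, and Sall1 37.0 against 29.96 CPM. Cebpb there averaged 2921 CPM against a carried level of 92.6 CPM.

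Library D2-3 was used in alternative settings only, and its microglia-like cells held 687 CPM of Cebpb, above the 395 to 623 CPM of the 3 Ctrl libraries.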

How the results depend on the processing

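Under 25 alternative settings, Sall1, Sall3 and Maf were called at D0 in 23 each, Mef2a and Cebpb in 17 and Mef2c in 9, and at D2 Sall1 in 24 and Sall3 and Maf in 25. The number of factors called at D0, 6, became 0 with D2-3 included, 0 among Cell Ranger 3.0.2 libraries, 3 without dividing clusters and 3 to 6 when 1 library was left out. The replicate block left 6 and 3 factors called at D0 and D2. Ctrl and D2 libraries of the same number correlated with r of 0.0477 and 0.0751. With only D2-1 and D2-2 tested, the r with one mirrors that with the other (Ctrl-1 and D2-2 gave -0.0477). These values therefore cannot decide whether the libraries were paired. In monocyte-like cells the count at D0 went from 0 to 1 under the replicate block, and at D2 from 1 to 0 with D2-3 and ranged from 0 to 1 without 1 library. In neutrophil-like cells the D0 count, 0, ranged from 0 to 1 without 1 library, and the D2 count, 1, became 0 with at least 10 cells per library, 2 with D2-3 and 0 to 3 without 1 library.

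No called value changed sign. Among uncalled D0 values, the version of Cell Ranger as a term gave 0.137 for Spi1, -0.0751 for Runx1 and 0.109 for Cebpa, 3.0.2 libraries 0.155, -0.0574 and 0.126, omission of dividing clusters 0.0273 for Cebpa, and total UMIs -0.0881 for Runx1. At D2, D2-3 gave 0.0324 for Spi1, the version term 0.0402 for Spi1 and 0.0699 for Cebpa, thinning to 2000 UMIs 0.00879 for Cebpa, and 3.0.2 libraries 0.0667 for Spi1 and 0.0974 for Cebpa. For D2 against D0, D2-3 gave -0.128 for Mef2a, -0.203 for Mef2c, 0.0728 for Spi1 and -0.0914 for Runx1, thinning 0.0445 for Cebpa, and total UMIs 0.00302 for Spi1 and 0.0605 for Cebpa. With 1 library left out, Spi1 ranged from -0.131 to 0.0136 at D0 and Cebpa from -0.338 to 0.0753 at D2, and for D2 against D0 Maf ranged from -0.446 to 0.0431, Mef2c from -0.0952 to 0.182 and Cebpa from -0.243 to 0.154. Runx1 in border-associated macrophage-like cells gave -0.0360 with at least 10 cells, -0.0418 when thinned and -0.184 at a Leiden resolution of 1.0. The causes were not tested. All genes called at D0, 2468, ranged from 513 (D2-3) to 3830 (total UMIs), and at D2, 2311, from 745 (3.0.2 libraries) to 3096 (without Ctrl-1).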

Other observations

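Over the 33 sums of class and library, and among 4148 genes of at least 50 CPM in a class, the genes whose level followed each factor most closely were found by Pearson's r of log2(CPM + 10). The points share libraries and classes, so r is a description. Adgrg1, Jam2 and Serpine2 were nearest to Sall1 (r of 0.979, 0.979 and 0.971), and Adgrg1, Csmd3 and Sox4 to Sall3 (0.959, 0.958 and 0.957). For Maf these were Camk1, Tgfbr2 and Ntpcr (0.967, 0.964 and 0.96). Mef2a was followed by Laptm5, Atraid and Clasp2 (0.96, 0.96 and 0.954), and Mef2c by Clasp2, Mtdh and Nrip1 (0.965, 0.963 and 0.961). Trim44, Stard9 and Ormdl2 were nearest to Runx1 (0.947, 0.936 and 0.924), and Atraid, Tmem135 and Rgs10 to Cebpa (0.975, 0.958 and 0.958). The nearest genes of Spi1 were Dazap2, Itgal and Rnf149 (0.884, 0.875 and 0.867), and those of Cebpb were Pkm, Tpd52 and Gsr (0.913, 0.909 and 0.903).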
